A study of Mus musculus with 4 samples.

Results

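The 10 genes described here carry out antigen presentation by MHC class II. They were chosen by name for their roles, as the chains of the class II molecules, their peptide-loading chaperones, the invariant chain, the protease that trims it and the transactivator of the family, and all 10 were found among the 21878 genes listed. The RNA came from bone marrow-derived macrophages of C57BL/6 mice aged 8 weeks. The cells were grown with M-CSF and then kept for 48 h, as the labels give it, across a porous insert from MC38, a mouse colon cancer cell line, while a figure legend of the study gives a shorter coculture. One group, labelled WT, came by its label from wild type mice. The other, labelled anti-Act1, came from mice in which the study knocked down Act1, the adaptor protein of the IL-17 receptor, in macrophages. In its account of the pathway enrichment, the study instead names Apc Min/+ mice without and with that knockdown. The Apc genotype is therefore not settled by the sources used here. The promoter that drives the knockdown is not named in the sources used here. Each group had 2 libraries, which the methods call biological replicates without saying whether each came from a separate mouse, so the p-values measure the spread between these libraries. Total counts ran from 55435063 to 75062945 per library, and both WT libraries were deeper than both anti-Act1 libraries.

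MHC class II molecules are pairs of an alpha and a beta chain that display peptides from endosomes to CD4+ T cells. The invariant chain, Cd74, holds the new pair and carries it to the endosome, where cathepsin S cuts the chain down to a short peptide that the chaperone DM then exchanges for antigen, while the related molecule DO restrains DM. Transcription of these genes depends on the coactivator Ciita, which binds no DNA itself but joins a complex on the X and Y boxes of their promoters, and macrophages are known to raise Ciita when they meet interferon gamma. Mice of the C57BL/6 strain carry an MHC haplotype in which a deletion silences the E alpha gene, so that they make the A molecule but no E molecule, although the E beta gene is transcribed.

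The promoter windows were searched for short motifs. The X and Y boxes are described from promoters of class II genes, so a match is not independent of the choice of genes. RefSeq (GRCm38.p6) gave windows of 250 bases before to 50 bases after the start for 7 of the 10 genes, and H2-Ab1, Cd74 and Ciita had no entry. An X box core (AACNGATG) and a Y box core (GATTGG), each searched on both strands, stood together in the windows of 3 genes, H2-Eb1, H2-DMb1 and H2-DMb2, with 21 bases between the cores in H2-Eb1, which held another Y core nearer the start, and 22 in each of the others. Of all 32851 promoter windows, 2.32% held the X core, 16.1% the Y core and 0.335% both. The window of H2-Aa held the Y core alone, as did that of H2-Oa and 1 of the windows listed for H2-DMa. Ctss, which lies outside the MHC, had no Y core in its window but held an interferon response core, GAAA repeated after any 2 bases on either strand, which 3.44% of all windows held, and 1 X core farther upstream. The motifs do not overlap each other in these windows, their letters were chosen after earlier results were known, and a match of letters is a description and not a measured site. A window without a match may still hold a box written in other letters. The 5 windows shown contrast those in which both cores matched with those in which they did not. They are read 5′ to 3′, with the X, Y and interferon response cores in capitals.
H2-Eb1, chr17:34305617-34305916, plus strand: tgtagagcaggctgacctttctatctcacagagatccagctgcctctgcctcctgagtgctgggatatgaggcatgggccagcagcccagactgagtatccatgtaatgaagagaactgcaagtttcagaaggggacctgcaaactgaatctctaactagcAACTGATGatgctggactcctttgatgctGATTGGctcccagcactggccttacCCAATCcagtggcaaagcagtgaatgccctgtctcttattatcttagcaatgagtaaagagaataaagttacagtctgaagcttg
H2-DMb1, chr17:34152941-34153240, plus strand: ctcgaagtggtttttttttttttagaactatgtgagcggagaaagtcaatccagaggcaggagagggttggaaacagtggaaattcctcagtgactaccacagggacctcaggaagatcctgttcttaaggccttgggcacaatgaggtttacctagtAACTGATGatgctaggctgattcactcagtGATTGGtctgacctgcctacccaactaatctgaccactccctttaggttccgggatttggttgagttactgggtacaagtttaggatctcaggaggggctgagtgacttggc
H2-DMb2, chr17:34144999-34145298, plus strand: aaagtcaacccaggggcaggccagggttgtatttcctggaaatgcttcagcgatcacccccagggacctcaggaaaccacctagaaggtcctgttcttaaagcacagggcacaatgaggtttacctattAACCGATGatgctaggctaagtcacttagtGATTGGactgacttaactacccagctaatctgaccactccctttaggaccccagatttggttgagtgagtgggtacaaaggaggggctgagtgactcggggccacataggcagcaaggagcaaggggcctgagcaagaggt
H2-Aa, chr17:34287774-34288073, minus strand: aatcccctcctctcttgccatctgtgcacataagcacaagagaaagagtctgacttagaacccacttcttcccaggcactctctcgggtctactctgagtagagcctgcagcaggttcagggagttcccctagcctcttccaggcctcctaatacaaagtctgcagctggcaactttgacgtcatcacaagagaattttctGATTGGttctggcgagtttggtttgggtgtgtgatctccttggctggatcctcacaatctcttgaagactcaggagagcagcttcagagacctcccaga
Ctss, chr3:95526536-95526835, plus strand: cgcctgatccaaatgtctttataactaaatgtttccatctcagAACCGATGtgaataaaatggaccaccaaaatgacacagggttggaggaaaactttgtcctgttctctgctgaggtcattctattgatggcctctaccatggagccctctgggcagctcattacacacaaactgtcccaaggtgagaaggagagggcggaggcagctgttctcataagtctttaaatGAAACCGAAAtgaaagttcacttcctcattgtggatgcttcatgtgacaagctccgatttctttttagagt

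The transcript of the targeted gene was not lower in the anti-Act1 libraries, with 6.98 and 7.54 CPM (counts scaled to 1e6 per library after TMM normalization) of Traf3ip2, which encodes Act1, in the WT libraries and 9.63 and 7.84 CPM in the others (log2 fold change of anti-Act1 over WT, log2FC, 0.27, edgeR adjusted p = 0.117, and 0.41 with an adjusted p of 0.0343 without anti-Act1 replicate 2), so that each group is called here by its label and every direction rests on these labels. The Y-linked gene Ddx3y was at 88.8 and 97.0 CPM in the WT libraries and at 0 counts in both anti-Act1 libraries, so the groups also differ in the presence of Y-linked transcripts, and this cannot be told apart from the genotype in any result that follows. The macrophage markers Adgre1, Csf1r, Cd68, Mertk, Itgam, Fcgr1 and Lyz2 summed to between 22751 and 24185 CPM in every library, most of it Lyz2. Lyz2 was the 1 gene of the 7 with a positive log2FC (0.096, not called), and the other 6 had negative values. Of those 6, 2 were called lower in the anti-Act1 libraries, Mertk with a log2FC of -0.40 and Itgam with -0.31. Bulk RNA cannot tell fewer cells with a transcript from less of it in each cell. Other cells that express class II genes were looked for by their markers. The 8 B cell markers summed to 3.14 and 3.23 CPM in the WT libraries and to 3.90 and 4.27 CPM in the anti-Act1 libraries, nearly all of it Cd79b, while Ms4a1, Pax5 and Blk had between 0 and 6 counts in any library. The sum of the 9 dendritic cell markers moved the other way, with 38.6 and 39.6 CPM against 33.1 and 34.6 CPM. Most of it was Itgax, which macrophages also express (log2FC -0.23, edgeR adjusted p = 0.0136). Clec9a had 152 and 161 counts in the WT libraries and 152 and 148 in the anti-Act1 libraries (log2FC 0.21, edgeR adjusted p = 0.532). Ccr7 had 121 and 124 against 72 and 82 counts, and Batf3 had 89 and 104 against 71 and 59, neither with a call. Cd209a was at 0 counts in all libraries, and Flt3, Zbtb46 and Xcr1 had between 4 and 35 counts. The part of these cells in the results was not tested. T cell markers summed to between 25.2 and 31.0 CPM, nearly all of it Cd4 (log2FC 0.21, edgeR adjusted p = 0.0358), with at most 6 counts of Cd3e, Cd3d, Cd3g or Cd8a. Epithelial tumour markers summed to between 0.0916 and 0.464 CPM, fibroblast markers to between 0.162 and 0.476 CPM and neutrophil markers to between 6.40 and 7.33 CPM, of which S100a8 was higher and S100a9 and Ngp were lower in the anti-Act1 libraries.

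Per unit of gene length, the genes spanned from Ctss, the 6th highest gene of the whole table, down to H2-Oa, and the order was the same in every library apart from H2-Ab1 and H2-Aa. The deposited FPKM (fragments scaled to gene length and library size) of Ctss, which encodes cathepsin S, were 6302 and 6030 in the WT libraries and 6528 and 6571 in the anti-Act1 libraries. Cd74 came next with 355 and 358 against 337 and 349 FPKM. The A beta gene H2-Ab1 had 99.0 and 93.7 FPKM in the WT libraries and 117 and 123 in the anti-Act1 libraries, and the A alpha gene H2-Aa had 103 and 95.8 against 108 and 104. In FPKM, H2-Ab1 therefore stood slightly below H2-Aa within each WT library and above it within each anti-Act1 library. Across the WT libraries the ranges of these genes overlapped. H2-DMb1 followed at 34.1 ± 1.48 and 34.5 ± 0.725 FPKM (SD, n = 2), above H2-Eb1 at 25.6 ± 0.727 and 28.7 ± 0.725 FPKM in WT and anti-Act1 respectively. H2-DMa was at 8.02 ± 0.491 and 7.93 ± 0.420 FPKM and H2-DMb2 at 4.39 ± 0.0968 and 3.18 ± 0.211 FPKM. These last levels depend on the lengths behind the FPKM, which were 3325 bases for H2-DMa and 786 bases for H2-DMb2, against 1284 bases for H2-DMb1. Ciita, a regulator rather than a structural component, was at 0.882 ± 0.0632 and 0.942 ± 0.0192 FPKM, and H2-Oa, the alpha chain of DO, at 0.232 ± 0.113 and 0.401 ± 0.0888 FPKM, the lowest of the 10.

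**Figure D1:**
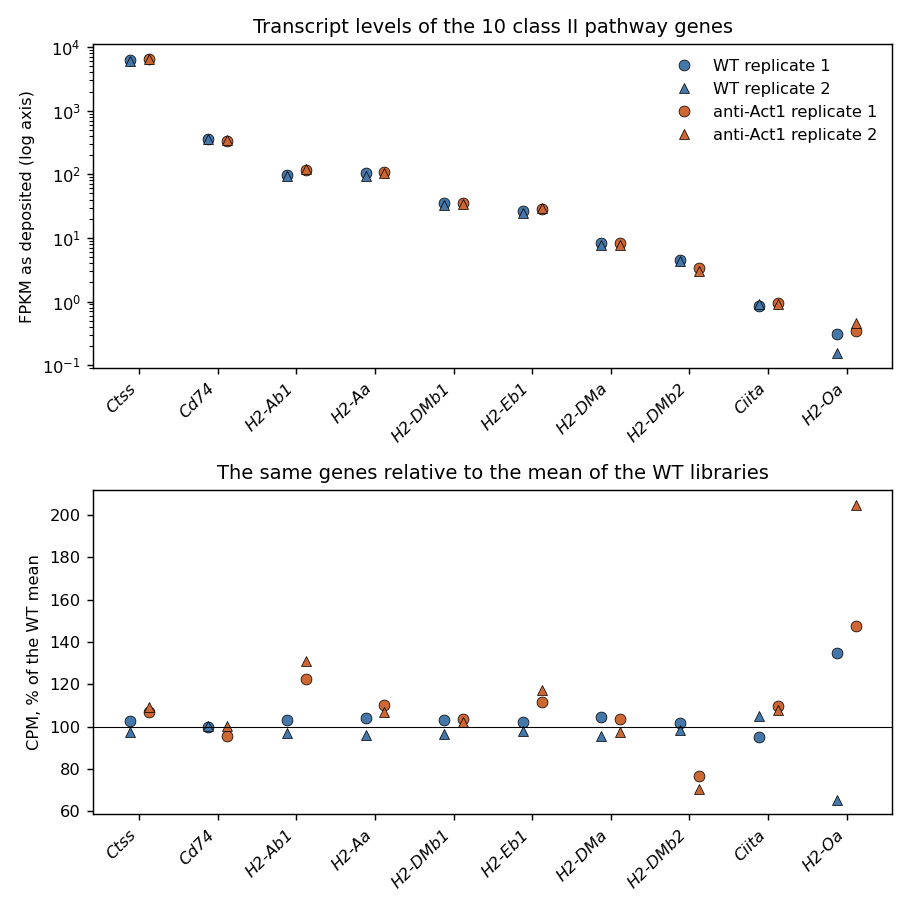
The upper panel plots the deposited FPKM of each gene in each library on a log axis, and the lower panel plots CPM as a percentage of the mean of the WT libraries, with 1 symbol per library. Levels fall from at least 6030 FPKM for Ctss to at most 0.464 FPKM for H2-Oa. In CPM, both anti-Act1 libraries lie above both WT libraries for Ctss, H2-Ab1, H2-Aa, H2-Eb1, Ciita and H2-Oa. They lie below them for H2-DMb2.

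Of the class II genes, 2 changed between the groups. The beta chain genes H2-Ab1 and H2-Eb1 were higher in the anti-Act1 libraries, by 26.8% and 14.5%, and the other 8 genes did not pass the test, among them Cd74 and the transactivator Ciita. All 10 had enough counts for edgeR's quasi-likelihood test, whose p-values were adjusted over all 12494 genes tested. At an adjusted p under 0.05, 2 of the 10 were higher, where 10.9% of all tested genes were higher and 20.7% were called in either direction, so that the number called among these genes was close to the background. By edgeR 0 of the 10 were lower at that threshold, against 9.76% of all tested genes, and at an unadjusted p under 0.05 there were 4 higher and 1 lower. The count of genes called was 1 to 4 when each library was left out in turn, the highest of these without WT replicate 1 and 1 without each of the other libraries, and it was 1 without composition normalization. Their median log2FC was 0.11, beside -0.0046 over all tested genes. The groups did not overlap in CPM for 7 of the 10 genes, 6 of them higher in the anti-Act1 libraries, where 57.1% of all tested genes showed no overlap, 28.4% with higher and 28.7% with lower values in the anti-Act1 libraries.

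Of the chains that make the class II molecules, H2-Ab1 changed most. It was at 117 and 111 CPM in the WT libraries and at 140 and 149 CPM in the anti-Act1 libraries. Both anti-Act1 libraries lay above both WT libraries, and the log2FC was 0.34 (SE 0.05, edgeR adjusted p = 2.28e-06), an increase of 26.8% with a 95% interval from 17.6% to 36.7%. The size of this difference exceeded that of 82.1% of all tested genes, and it was called under all 15 alternatives that were run. H2-Aa, whose product pairs with that of H2-Ab1, was at 110 and 101 CPM against 116 and 113 CPM. The groups did not overlap, but they were close, and the log2FC of 0.12 (SE 0.05, edgeR adjusted p = 0.128) did not pass, with an interval from 0.527% to 17.0%. Without WT replicate 1 the log2FC of H2-Aa was 0.17 and its adjusted p was 0.0280, the lowest of a range from 0.0280 to 0.610 over the alternatives. H2-Eb1, the E beta gene, was at 43.2 and 41.3 CPM in the WT libraries and at 47.2 and 49.6 CPM in the anti-Act1 libraries. These groups were apart as well, with a log2FC of 0.19 (SE 0.06, edgeR adjusted p = 0.0194) and an interval from 4.92% to 24.9%. That call was lost in 5 of the 15 alternatives, with a log2FC of 0.16 and an adjusted p of 0.127 without WT replicate 2, 0.23 and 0.0507 without anti-Act1 replicate 1, and 0.16 and 0.236 without anti-Act1 replicate 2. The E alpha gene, listed as H2-Ea-ps, had 0 counts in all libraries, which allows at most 3 counts, or 0.0395 to 0.0549 CPM.

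**Figure D2:**
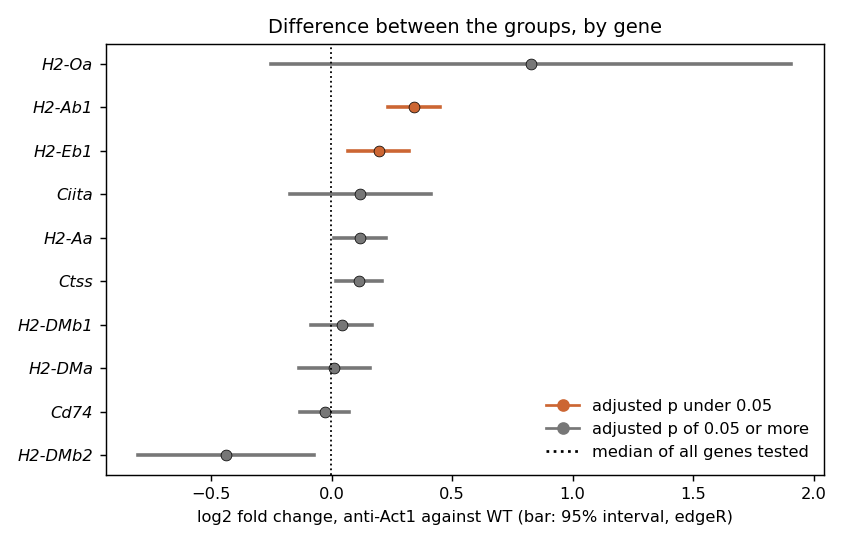
The log2FC of each gene between anti-Act1 and WT libraries is plotted with its 95% interval from edgeR, and the dotted line marks the median of all genes tested. H2-Ab1 (0.34) and H2-Eb1 (0.19) lie to the right of the line with an adjusted p under 0.05, the interval of Cd74 (-0.03) spans it, and the widest interval belongs to H2-Oa, which had at most 27 counts in a library.

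Among the 10 genes, the invariant chain, Ctss and the DM chains did not pass the test. Cd74 was at 465 and 467 CPM in the WT libraries and at 446 and 467 CPM in the anti-Act1 libraries. These values overlapped, and the log2FC was -0.03 (SE 0.05, edgeR adjusted p = 0.741), with an interval from -8.71% to 5.06% that does not reach the increase measured for H2-Ab1. Ctss was at 7871 and 7495 CPM against 8227 and 8384 CPM. Both anti-Act1 libraries were above both WT libraries, by a log2FC of 0.11 (SE 0.05, edgeR adjusted p = 0.0933) that missed the threshold, while DESeq2 gave 0.11 with an adjusted p of 0.0348, the lowest of a range from 0.0348 to 0.802, and without WT replicate 1 the values were 0.15 and 0.0404. H2-DMa, the alpha chain of DM, was at 27.6 and 25.2 CPM against 27.4 and 25.7 CPM and overlapped fully (log2FC 0.0095, SE 0.07, edgeR adjusted p = 0.954). H2-DMb1, a beta chain of DM, was at 44.9 and 42.0 CPM against 45.1 and 44.3 CPM, and its log2FC was 0.042 (SE 0.06, edgeR adjusted p = 0.711), an interval from -5.69% to 12.4%. Exons of H2-DMa share 360 bases with Brd2 on the other strand, whose reads cannot be told apart without strand. Brd2 was far more abundant, at 308 CPM in the WT and 307 CPM in the anti-Act1 libraries on average, with a log2FC of -0.0058. How many of the H2-DMa counts came from Brd2 was not tested.

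H2-DMb2, the paralog of H2-DMb1, was the 1 gene of the 10 whose anti-Act1 libraries both lay below both WT libraries in CPM, while in FPKM this also held for Cd74. It had 225 and 255 counts in the WT libraries and 162 and 132 counts in the anti-Act1 libraries, or 3.48 and 3.36 against 2.62 and 2.42 CPM. The log2FC was -0.44 (SE 0.18, edgeR adjusted p = 0.0803), an estimate of -26.2% with an interval from -42.7% to -5.02%. By limma on log2(FPKM + 1) and on log2(FPKM + 0.1) the adjusted p was 0.00599 and 0.00649, in a range from 0.00599 to 0.286 over the alternatives. As a share of all counts on the pair of genes, H2-DMb2 made up 7.20% (exact 95% interval 6.32% to 8.16%) and 7.40% (6.55% to 8.33%) in the WT libraries. In the anti-Act1 libraries it made up 5.50% (4.70% to 6.38%) and 5.17% (4.34% to 6.10%), below both WT libraries. An exact two-sided permutation test of this share gave p = 0.333, the smallest that 2 libraries against 2 allow. The intervals cover counting error only and treat every count as independent. If read pairs counted more than once, which was not settled here, they are too narrow. Of the 100-base windows of the GENCODE M21 transcripts of H2-DMb2, 10.3% also occur in H2-DMb1, so the counting could have split some reads between the paralogs. As printed above, their promoter windows hold the same pair of cores at the same distance.

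Count ratios between the chains were set beside the changes of the single genes. H2-Ab1 had 1.07 and 1.09 counts per count of H2-Aa in the WT libraries and 1.20 and 1.32 in the anti-Act1 libraries. Per count of Cd74, H2-Ab1 had 0.252 and 0.237 counts in the WT libraries and 0.313 and 0.319 in the anti-Act1 libraries. H2-Eb1 had 0.369 and 0.374 counts per count of H2-Ab1 in the WT libraries and 0.338 and 0.332 in the others. None of these 3 ratios overlapped between the groups, and each had p = 0.333 in the exact two-sided permutation test, the smallest it can give. The ratios were chosen after the values were seen and do not depend on the scaling between libraries, and the transcripts of H2-Aa, H2-Ab1, H2-Eb1 and Cd74 share no 100-base window with any other gene.

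**Figure D3:**
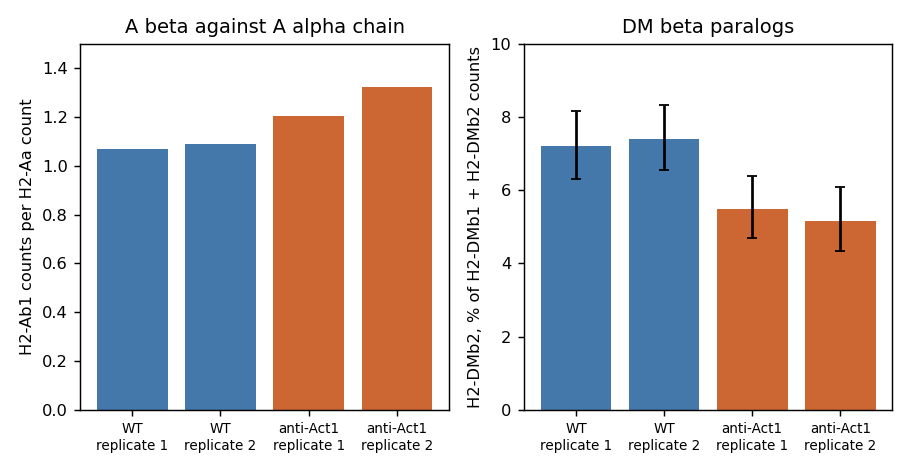
Bars give, for each library, H2-Ab1 counts per H2-Aa count on the left and the share of H2-DMb2 in the counts of both DM beta paralogs on the right. The shares have exact 95% binomial intervals, which treat every count as independent. The left bars rise from 1.07 and 1.09 in WT to 1.20 and 1.32 in anti-Act1, and the right bars go from 7.20% and 7.40% to 5.50% and 5.17%.

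The regulator Ciita and the DO chain H2-Oa had too few counts to resolve a modest difference. Ciita had 279 and 361 counts in the WT libraries and 307 and 267 in the anti-Act1 libraries, or 4.32 and 4.76 against 4.97 and 4.89 CPM. Its groups were barely apart, with a log2FC of 0.12 (SE 0.15, edgeR adjusted p = 0.640) and an interval from -11.5% to 33.1% that includes the increase of H2-Ab1. Exons of Ciita share 329 bases with Dexi on the other strand. H2-Oa, whose exons share 321 bases with BC051537 on the other strand, had 21 and 12 counts against 22 and 27. Its log2FC of 0.83 (SE 0.54, edgeR adjusted p = 0.308) was 0.38 to 1.41 when each library was left out in turn, the lowest without WT replicate 2 and the highest without WT replicate 1. H2-Ob, the DO beta chain, had 16 and 50 counts against 19 and 30.

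The rest of the class II pathway was taken as 5 lists of genes, of which 31 of 36 names were listed and 28 genes were tested. Of these, 7 were higher and 3 lower in the anti-Act1 libraries, beside a background of 10.9% higher and 9.76% lower, and their median log2FC was 0.029. Leaving out each library in turn gave 6 to 9 of these 28 genes called, with 6 without WT replicate 2. The factors that bind the X and Y boxes went both ways. Among these 7 factors, Rfxap, a subunit of the RFX complex, was at 27.4 CPM in the WT and 32.1 CPM in the anti-Act1 libraries on average (log2FC 0.23, edgeR adjusted p = 0.0123), and Creb1, which binds the X2 element, fell from 58.5 to 50.7 CPM (log2FC -0.21, edgeR adjusted p = 0.0107). Rfxap was called in 12 of 15 alternatives and Creb1 in 9. Creb1 missed the threshold by every limma fit on FPKM (adjusted p from 0.0612 to 0.170). When each library was left out in turn, the log2FC was 0.20 to 0.27 for Rfxap and -0.28 to -0.13 for Creb1. Rfx5, Rfxank, Nfya, Nfyb and Nfyc did not pass, with adjusted p-values from 0.0820 to 0.414.

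Of the genes that act upstream of Ciita, Ifngr1, the ligand-binding chain of the interferon gamma receptor, fell from 508 to 457 CPM (log2FC -0.15, edgeR adjusted p = 0.0230), a call that 11 of 15 alternatives kept, with an adjusted p of 0.0604 with the replicate block, 0.142 when anti-Act1 replicate 1 was left out and 0.176 when anti-Act1 replicate 2 was. Of the 9 tested genes of this list, Ifngr1 was the 1 called lower and 1 other was called higher. The shares over all tested genes were 9.76% lower and 10.9% higher, and the median log2FC of the list was 0.031. The gene called higher is not reported here. Ifng itself had 1 count in 1 WT library and 0 in the others. Irf1 was at 86.1 and 94.0 CPM on average (log2FC 0.13, edgeR adjusted p = 0.0972), and Spi1 and Irf8, myeloid factors that act on Ciita, had log2FC values of -0.0090 and -0.04.

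In the endosome, where class II molecules meet their peptides, 5 of 9 genes were higher and 1 was lower. Over all tested genes, 10.9% were called higher and 9.76% lower, and no test of this list as a set was made. Ctsl, a cathepsin that can also trim the invariant chain, rose from 6922 to 8820 CPM (log2FC 0.35, edgeR adjusted p = 2.37e-07), Ctsz, another cathepsin, from 1182 to 1455 CPM (0.30, 1.07e-05) and Sppl2a, the intramembrane protease that clears the remnant of Cd74, from 333 to 391 CPM (0.23, 0.000896). These 3 calls were lost in 1 of 15 alternatives, limma on unfiltered log2(FPKM + 1) values. Cst3, which encodes cystatin C, an inhibitor of cysteine cathepsins, was higher too, at 1573 against 1361 CPM (log2FC 0.21, edgeR adjusted p = 0.00191). Ifi30, the thiol reductase that unfolds antigens, had a log2FC of 0.19 (SE 0.05, edgeR adjusted p = 0.00546), and since the study picked it on these libraries its direction is not independent evidence. Ctsb fell from 12292 to 11135 CPM (log2FC -0.14, edgeR adjusted p = 0.0265), and Lgmn, Ctsd and Ctsh had log2FC values between 0.0074 and 0.026 without a call. Cst3 was called in 11 of 15 alternatives, Ifi30 in 12 and Ctsb in 9. By every limma fit on FPKM, Cst3 (adjusted p from 0.0932 to 0.308) and Ctsb (0.137 to 0.468) missed the threshold. Ctsb also missed it with the replicate block (0.176). When each library was left out in turn, the log2FC was 0.13 to 0.29 for Cst3, 0.15 to 0.24 for Ifi30 and -0.18 to -0.10 for Ctsb. Of the turnover list, Il10, a cytokine that lowers surface class II, had 75 and 91 counts against 83 and 73, and its receptor chain Il10ra had a log2FC of 0.016.

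**Figure D4:**
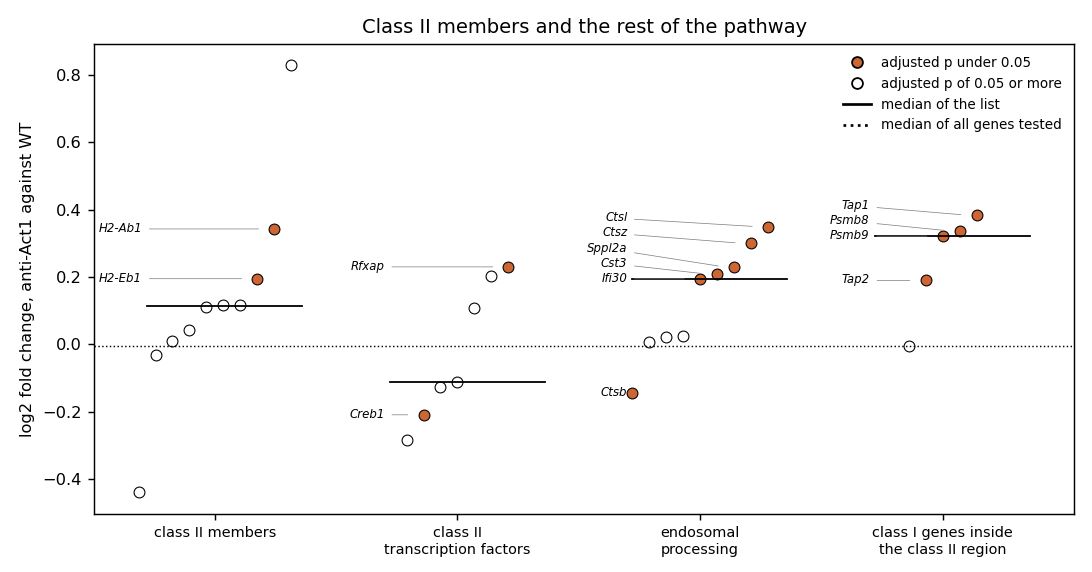
Each point is the log2FC of a tested gene between anti-Act1 and WT libraries, grouped by list for the class II genes and 3 of the other lists, with filled points for an adjusted p under 0.05 and a line for the median of each list. The medians are 0.11 for the class II genes, -0.11 for the transcription factors, 0.19 for endosomal processing and 0.32 for the other genes inside the class II region, 4 of which belong to class I presentation.

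Other genes lie among the class II genes on chromosome 17, most of them part of class I presentation. Of 5 such genes, the peptide transporters Tap1 and Tap2 and the immunoproteasome subunits Psmb8 and Psmb9 were higher in the anti-Act1 libraries. Their log2FC values were 0.38, 0.19, 0.34 and 0.32 in that order, with edgeR adjusted p-values from 7.60e-08 to 0.00902. Brd2, a bromodomain gene outside that pathway, was not called. Over all tested genes, 10.9% were called higher. Tap2 was called in 10 of 15 alternatives and missed the threshold by every limma fit on FPKM (adjusted p from 0.0666 to 0.156). Its log2FC was 0.13 to 0.25 when each library was left out in turn. Whether the class II genes differ from them in response was not tested. The mean profile of H2-Aa, H2-Ab1, H2-Eb1 and Cd74 over the 4 libraries, in centred log2(CPM + 0.5), was matched most closely by Nap1l4, Sdhd, C2cd2, Cyb5r3 and Mcoln2 among 8395 other genes with a mean of at least 10 CPM, at root mean square distances of 0.0030 to 0.0076. The genes of the profile themselves lay farther from their own mean, at 0.020 for H2-Eb1, 0.041 for H2-Aa, 0.095 for H2-Ab1 and 0.096 for Cd74, and 3666 of the 8395 genes were nearer to it than Cd74 was.

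**Figure D5:**
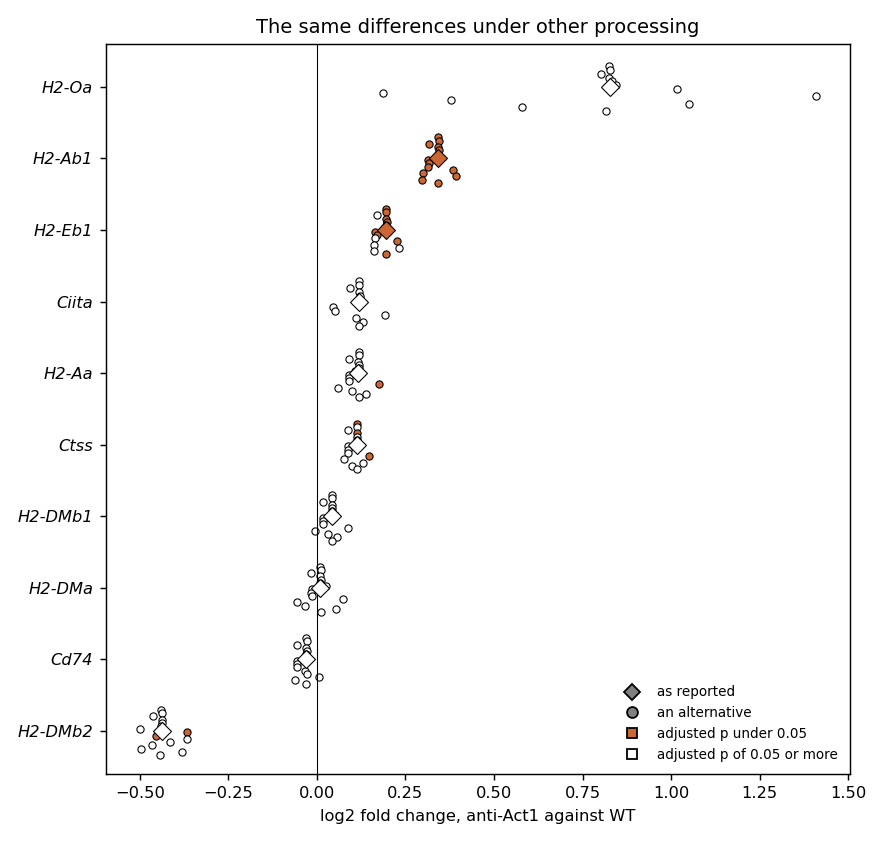
For each gene, the diamond gives the reported log2FC between anti-Act1 and WT libraries and the small points its value under each alternative that gave one, filled where the adjusted p was under 0.05. H2-Ab1 stays between 0.30 and 0.39 and filled throughout, H2-Eb1 lies between 0.16 and 0.23 with some points open, and H2-Oa runs from 0.19 to 1.41 with none filled.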

How the data were processed

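The RNA of macrophages, taken up in Trizol, was made into NEBNext Ultra libraries and sequenced as read pairs. The authors discarded poor reads and adapter-bearing pairs, aligned the rest with TopHat and deposited whole read counts per gene without normalization, together with FPKM values. The submitters' processing notes name Bowtie 0.12.2, HTSeq 0.6.1, mm8 and mm10 without saying what each was used for, and the annotation is not given in the sources used here. Of the counts from 1 to 20, 67.2% were even, so that a read pair may have counted more than once.

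Counts were tested with edgeR 4.0.16 (R 4.3.3) after filterByExpr and TMM, with condition as the sole term, by glmQLFit and glmQLFTest, and p-values were adjusted by Benjamini-Hochberg across every gene tested. For CPM, each library total was multiplied by its TMM factor, and standard errors and 95% intervals come from the same fit. FPKM served to compare levels between genes and as an alternative, on log2(FPKM + 1) or log2(FPKM + 0.1), with limma 3.58.1. DESeq2 1.42.0 on the same counts was a further alternative, as were its size factors in edgeR, no composition normalization, other filters, the replicate block, thinned counts and each library left out in turn, and dividing the counts by 2 was added after the data were seen. The named genes are the 10 class II genes, genes of the written lists (other class II molecules, X and Y box factors, regulators upstream of Ciita, endosomal processing, turnover, class I genes in the region, and markers of macrophages, dendritic, B, T, epithelial tumour and fibroblast cells and neutrophils) and the 5 nearest profiles. These members and lists were chosen with earlier results of these data known. The targeted gene, Ddx3y, Dexi, BC051537 and the ratios are named outside this rule. The edgeR test with and without the replicate block, DESeq2 and limma on log2(FPKM + 1) were first tried on simulated data. The permutation test, the binomial intervals and the other settings were not. Genes of the turnover list whose names a spreadsheet had turned into dates were not analysed here, and some genes of the lists are not reported here. RefSeq (GRCm38.p6) gave promoters and gene order, and GENCODE M21 gave shared windows and overlapping exons.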

Additional observations from a re-analysis of the deposited data

How the results depend on the processing

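Leaving out each library in turn gave 1 to 4 class II genes called, 6 to 9 of the other pathway genes and 1671 to 2543 of all genes, the lowest without anti-Act1 replicate 2, followed by 1712 without anti-Act1 replicate 1, where an arm with 1 library was assumed to vary like the other group. Without composition normalization 1 class II gene was called, since H2-Eb1 then had an adjusted p of 0.0511. With limma on unfiltered log2(FPKM + 1) values the counts were 1 class II gene, 1 other pathway gene and 1091 of all genes, and the cause was not tested. Whether the replicate numbers pair the libraries is not given in the sources used here, and the deviations between replicates correlated at -0.035 between groups. With the replicate block 2 class II genes, 8 other pathway genes and 2406 of all genes were called. H2-Ab1 was called in 15 of 15 alternatives, H2-Eb1 in 10, Ctss in 3, H2-DMb2 in 2 and H2-Aa in 1, and the other class II genes in none of theirs, of which H2-Oa and Ciita had 13, since some filters removed them. The sign of H2-DMa changed in 6 alternatives, and those of H2-DMb1 and Cd74 in 1 each, all without a call. The median over the class II genes lay between 0.052 and 0.12. Depth limited H2-Oa, H2-DMb2 and Ciita most, the genes with the fewest counts.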

Other observations

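Read along chromosome 17 in the order RefSeq gives, the tested class II genes and their neighbours did not change evenly, an order that was looked at only after the values were known. From H2-Oa at a log2 fold change of 0.83 (21 and 12 counts in the WT libraries), the values ran through Brd2 at -0.0058, H2-DMa at 0.0095, H2-DMb2 at -0.44 and H2-DMb1 at 0.042 to Psmb9 at 0.32, Tap1 at 0.38, Psmb8 at 0.34 and Tap2 at 0.19. Beyond these lay H2-Ob at -0.12, with 16 and 50 counts in the WT libraries, and then H2-Ab1 at 0.34, H2-Aa at 0.12 and H2-Eb1 at 0.19. The 6 genes of this stretch with an edgeR adjusted p under 0.05 were Psmb9, Tap1, Psmb8, Tap2, H2-Ab1 and H2-Eb1. Over all tested genes, 20.7% were called in either direction. No test of position was made.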
